A study of Homo sapiens with 8 samples.

Results

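Collagens, laminins and integrins were followed in CHP212, a human neuroblastoma cell line. Members were chosen by name: collagen chain names (COL, a number, A and a number), laminin chain names (LAMA, LAMB or LAMC and a number) and integrin names (ITGA or ITGB), each with at least 20 reads summed over the 8 libraries. This gave 74 of the 25369 genes listed, namely 39 collagen chains, 12 laminin chains and 23 integrin names. ITGB3BP, which encodes a centromere protein, matched by its name alone and is set apart from the 22 integrin subunits. Of 83 matching names, 9 fell under 20 reads. Just inside the threshold were COL4A4 and COL8A1 with 20 reads each, COL21A1 with 23, COL28A1 with 29 and LAMB4 with 30. Just outside were COL20A1 with 19 reads, ITGB2 and ITGB6 with 16 each, ITGAL with 12 and COL6A5 with 10.

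The study set CHP212 cells with FAM193A knocked out (KO) beside wild-type cells (WT), and each genotype received 10 uM Nutlin-3a or 0.2% DMSO during 12 h. Nutlin-3a blocks MDM2 from binding p53, so that p53 accumulates. The groups were KO Nutlin-3a, KO DMSO, WT Nutlin-3a and WT DMSO with 2 biological replicates each. The labels describe 1 KO population, so the loss of FAM193A cannot be told apart from any other property of that population. How FAM193A was edited is not given in the sources used here. Poly(A) RNA was sequenced, and p-values measure the spread between these replicates, not between KO populations.

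Collagens are triple helices of chains encoded by separate genes. Fibrillar collagens form the cables of the matrix, collagen IV forms the mesh of basement membranes, and collagen VI forms beaded microfibrils. Laminins are assembled from an alpha, a beta and a gamma chain and organise basement membranes. Integrins are pairs of an alpha and a beta subunit in the cell membrane that bind collagens, laminins or fibronectin and link them to the actin skeleton. Neuroblastoma arises from the neural crest lineage of the sympathetic nervous system, where integrins and laminins take part in migration and axon growth.

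Read totals ran from 28390405 to 38010075 per library, and members took 1.12 to 1.43% of the reads. Of the 74 members, 68 had enough reads to be tested; COL4A4, COL8A1, COL15A1, COL21A1, COL28A1 and LAMB4 did not. FAM193A itself was still read, with 1548 and 1269 reads in KO Nutlin-3a, 1244 and 1240 in KO DMSO, 1529 and 1238 in WT Nutlin-3a, and 1343 and 1138 in WT DMSO cells. Scaled for depth, FAM193A was lower in KO cells under DMSO (log2 fold change -0.33, adjusted p = 0.0010) and under Nutlin-3a (-0.24, adjusted p = 0.0083). The Nutlin-3a value did not pass when KO Nutlin-3a replicate 2 (adjusted p = 0.107), replicate 1 of WT Nutlin-3a (0.0722) or all 3 libraries with reads of unrelated genes (-0.09, adjusted p = 0.277) were left out. CDKN1A, a p53 target, was higher with Nutlin-3a in KO cells (log2 fold change 5.12) and in WT cells (5.39) by edgeR's quasi-likelihood test with Benjamini-Hochberg adjustment, the test used throughout. A member is called higher or lower at an adjusted p under 0.05, and every change given with a standard error (SE) is a log2 fold change. A list of 14 neuroblastoma genes was read throughout, with summed levels of 4004 to 4195 CPM (reads scaled to library depth) in KO Nutlin-3a, 4601 to 4674 in KO DMSO, 3296 to 3456 in WT Nutlin-3a and 4958 to 4989 in WT DMSO cells. A list of 12 colon genes, picked after the data were seen, summed to 559 reads in KO Nutlin-3a replicate 2 and 612 in WT DMSO replicate 2, against 1 to 18 in the other 6 libraries. A list of 6 receptor kinase genes, picked likewise, summed to 672 reads in WT Nutlin-3a replicate 1 and to 7 to 70 elsewhere. Calls among members are given with all libraries and, for the whole set and for the fibrillar, laminin and integrin families, also described without those 3. Leaving out those 3 keeps 1 library in each group but KO DMSO, so the spread in that fit comes from the KO DMSO pair alone. Shares of all genes given beside the counts are from the fit of all libraries.

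The repertoire was led by few genes. Levels are compared between genes as RPKM, reads scaled to gene length and library depth, as the authors deposited them. Averaged over the 8 libraries, 4 members exceeded 100 RPKM, 19 lay between 10 and 100, 20 between 1 and 10, and 31 below 1. The highest was COL1A1, the main chain of type I collagen, at 815 and 860.0 RPKM in KO Nutlin-3a, 692 and 647 in KO DMSO, 681 and 688 in WT Nutlin-3a, and 529 and 541 in WT DMSO cells. It was followed by COL3A1, the chain of the reticular collagen III, then by COL6A1 and by ITGB1, the beta subunit shared by most matrix-binding integrins. ITGB1 stood at 164 and 169.5 RPKM in KO Nutlin-3a, 191 and 195 in KO DMSO, 161 and 168 in WT Nutlin-3a, and 194 and 198 in WT DMSO cells. Its KO and WT libraries overlapped in each treatment, and neither genotype comparison passed the threshold. It supplied 92.2 to 92.8% of the summed RPKM of integrin beta subunits in KO cells and 84.3 to 85.6% in WT cells.

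**Figure D1:**
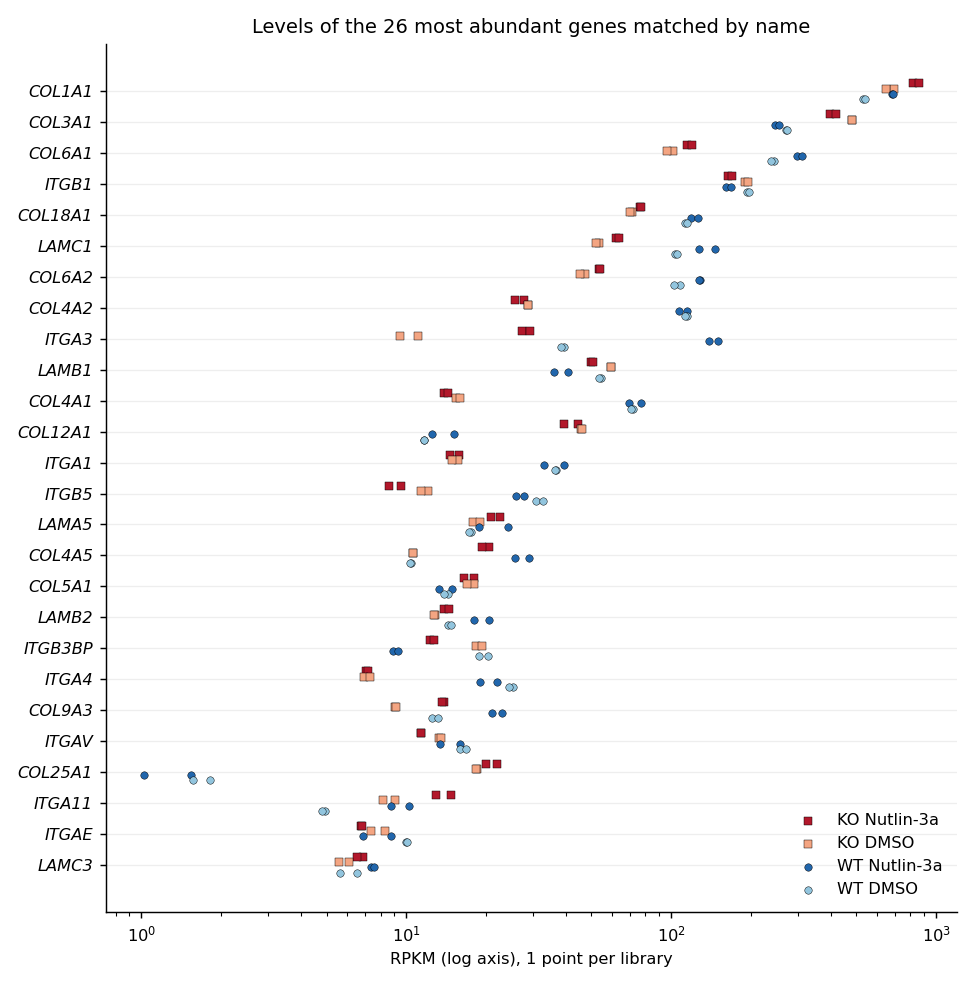
RPKM on a log axis for the 26 members with the highest mean, 1 point per library, KO libraries as squares and WT libraries as circles. COL1A1 and COL3A1 lie at the top with KO above WT in each treatment, while COL6A1, COL4A1, COL4A2 and ITGA3 have all KO points to the left of the WT points of the same treatment.

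Between genotypes, KO cells had fewer reads of most basement membrane, microfibril, laminin and integrin genes, and more reads of 6 of 10 tested fibrillar collagens under DMSO and of 5 under Nutlin-3a. Under DMSO, 16 of 68 tested members were higher and 33 lower in KO than in WT cells, where 31.4% of all 15879 tested genes were higher and 30.1% lower. Under Nutlin-3a, 18 members were higher and 32 lower, where 32.7% of all genes were higher and 30.4% lower. Without the 3 libraries with reads of unrelated genes, 15 were higher and 31 lower under DMSO, and 16 and 34 under Nutlin-3a. The median log2 fold change of members was -0.36 under DMSO and -0.33 under Nutlin-3a, against 0.01 and 0.02 over all tested genes. Of the members called, 13 were higher in both treatments (81.2% of those under DMSO and 72.2% of those under Nutlin-3a), and 27 were lower in both (81.8% and 84.4%). The same shares over all genes were not computed, so this overlap is not read as a trait of the members. COL19A1 alone among the members was called in opposite directions, higher in KO cells under DMSO (0.29, SE 0.11, adjusted p = 0.028) and lower under Nutlin-3a (-0.38, SE 0.10, adjusted p = 0.0027). The call of COL19A1 under DMSO was lost without any 1 of the 4 DMSO libraries (adjusted p up to 0.124). In these bulk samples, fewer cells of a kind and less RNA per cell cannot be told apart.

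**Figure D2:**
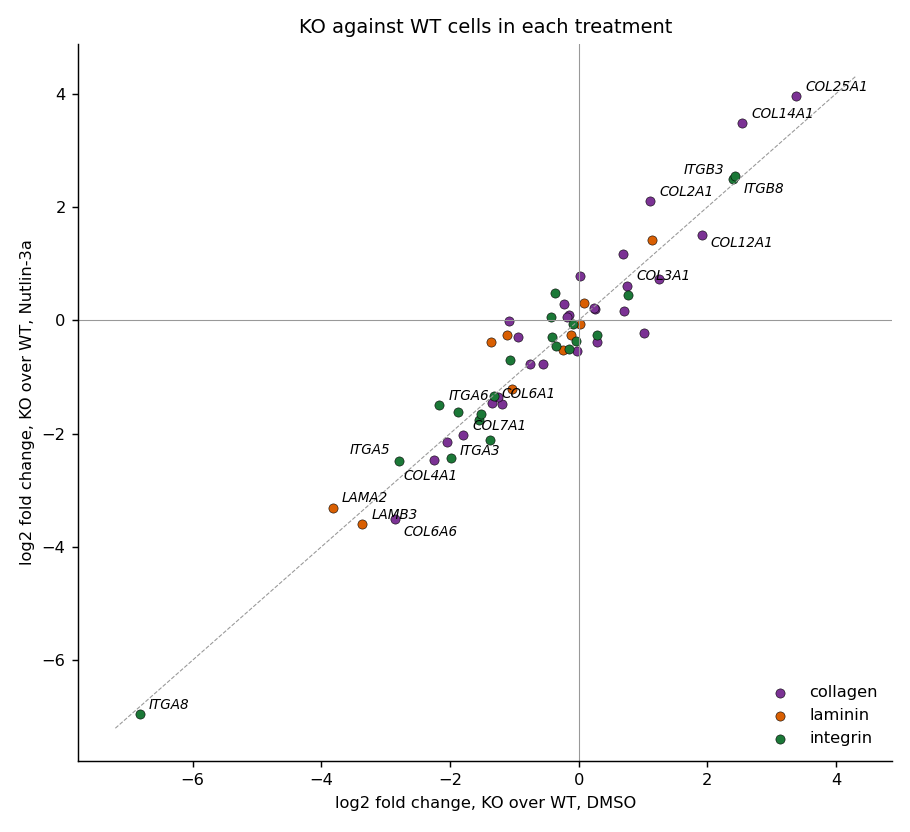
Log2 fold change of KO over WT under DMSO (x axis) and under Nutlin-3a (y axis) for 59 tested members with more than 3 reads in every group compared, coloured by family. The dashed line marks equal change. Most points lie near it, with ITGA8 farthest down and COL25A1 and COL14A1 farthest up.

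The fibrillar collagens held more higher than lower chains in KO cells. Among all 34 tested collagen chains, 12 were higher and 13 lower under DMSO, and 12 were higher and 14 lower under Nutlin-3a. Over all genes, 31.4% were higher and 30.1% lower under DMSO, and 32.7% and 30.4% under Nutlin-3a. Of the 10 fibrillar chains tested, 6 were higher and 1 was lower under DMSO, and 5 were higher and 0 lower under Nutlin-3a. Without the 3 libraries with reads of unrelated genes, 6 were higher and 1 lower under DMSO, and 5 and 1 under Nutlin-3a. Without KO Nutlin-3a replicate 2, 3 were higher under Nutlin-3a. COL3A1 measured 398 and 419 RPKM in KO Nutlin-3a, 480.1 and 479.8 in KO DMSO, 246 and 256 in WT Nutlin-3a, and 272 and 274 in WT DMSO cells. All 4 KO libraries lay above all 4 WT libraries, and the rise was 0.75, SE 0.05, adjusted p = 1.2e-10 under DMSO. COL1A1 was also higher, at 0.26, SE 0.05, adjusted p = 0.00022 under DMSO and 0.20, SE 0.05, adjusted p = 0.0021 under Nutlin-3a. The second of these calls was lost without KO Nutlin-3a replicate 2 (log2 fold change 0.15, adjusted p = 0.053). COL5A2, which joins COL5A1 in the thin collagen V that nucleates fibrils, stood at 5.45 and 5.30 RPKM in KO DMSO cells, against 2.06 and 2.29 in WT DMSO cells, a log2 difference of 1.24. COL2A1, the cartilage collagen, was at low levels of 2.25 and 2.07 RPKM in KO Nutlin-3a, 2.63 and 2.896 in KO DMSO, 0.491 and 0.450 in WT Nutlin-3a, and 1.40 and 1.05 in WT DMSO cells. The KO libraries were again all above the WT libraries (1.11, SE 0.13, adjusted p = 4.8e-07 under DMSO, 2.11, SE 0.15, adjusted p = 8.9e-10 under Nutlin-3a). Together COL1A1 and COL3A1 made up 74.1 to 75.1% of the summed collagen RPKM in KO cells and 52.0 to 53.5% in WT cells.

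COL1A2, which encodes the second chain of type I collagen, was nearly unread beside COL1A1. It had 30 and 41 reads in KO Nutlin-3a, 31 and 25 in KO DMSO, 0 and 0 in WT Nutlin-3a, and 13 and 268 in WT DMSO cells. The 268 reads came from WT DMSO replicate 2, a library with the colon gene reads, and no comparison of COL1A2 passed the threshold. COL1A1 reads in the same libraries were at 94285 to 170551.

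The basement membrane collagens moved the other way. COL4A1 and COL4A2 encode the chains of the common form of collagen IV. COL4A1 measured 13.9 and 14.4 RPKM in KO Nutlin-3a, 15.4 and 15.9 in KO DMSO, 69.4 and 76.9 in WT Nutlin-3a, and 71.5 and 70.3 in WT DMSO cells. COL4A2 measured 25.7 and 27.8 RPKM in KO Nutlin-3a, 28.7 and 28.9 in KO DMSO, 107 and 115 in WT Nutlin-3a, and 115 and 113 in WT DMSO cells. For each gene the 4 KO libraries lay far below the 4 WT libraries. In KO cells, COL4A1 fell by 2.24 (SE 0.05) under DMSO and fell by 2.46 (SE 0.05) under Nutlin-3a relative to WT. COL4A2 fell by 2.05 (SE 0.05) under DMSO and fell by 2.14 (SE 0.05) under Nutlin-3a. The COL4A2 to COL4A1 ratio of RPKM was 1.82 to 1.93 in KO libraries and 1.49 to 1.61 in WT libraries.

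These genes stand head to head on human chromosome 13 and are known to share a promoter region. The window from 250 bases before to 50 after the start of COL4A2 is shown because it overlaps the same window of COL4A1 on the opposite strand. Sequences are from RefSeq on GRCh38.p14, a later build than the counts, and capitals mark the 226 bases that lie in both windows.
COL4A2, chr13:110307034-110307333, plus strand: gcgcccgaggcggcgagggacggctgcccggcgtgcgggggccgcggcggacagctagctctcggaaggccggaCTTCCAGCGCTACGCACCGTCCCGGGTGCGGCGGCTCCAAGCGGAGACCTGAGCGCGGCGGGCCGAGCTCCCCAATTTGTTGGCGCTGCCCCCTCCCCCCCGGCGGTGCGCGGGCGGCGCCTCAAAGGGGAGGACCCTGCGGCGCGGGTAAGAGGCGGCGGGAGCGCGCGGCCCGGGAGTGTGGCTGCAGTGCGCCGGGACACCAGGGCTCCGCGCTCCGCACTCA
The window holds 77.7% G and C.

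COL4A5 and COL4A6 encode further collagen IV chains and form a similar head-to-head pair on chromosome X. Unlike the first pair they differed in how they stood between genotypes. COL4A5 measured 20.5 and 19.3 RPKM in KO Nutlin-3a, 10.6 and 10.6 in KO DMSO, 25.8 and 29.1 in WT Nutlin-3a, and 10.4 and 10.3 in WT DMSO cells. The KO DMSO and WT DMSO libraries nearly coincided, and the genotype comparison under DMSO did not pass the threshold. Under Nutlin-3a COL4A5 was lower in KO cells (-0.55, SE 0.05, adjusted p = 3.6e-08). COL4A6, at 0.776 and 0.871 RPKM in KO Nutlin-3a, 0.387 and 0.401 in KO DMSO, 2.14 and 2.19 in WT Nutlin-3a, and 0.840 and 0.879 in WT DMSO cells, was lower in KO cells under DMSO (-1.19, SE 0.14, adjusted p = 6.5e-07) and under Nutlin-3a (-1.49, SE 0.11, adjusted p = 1.7e-09). The COL4A5 to COL4A6 ratio of RPKM was 22.2 to 27.4 in KO and 11.7 to 13.3 in WT libraries. The COL4A5 window is shown for comparison with the chromosome 13 pair, with capitals on the 121 bases shared with a COL4A6 window on the other strand.
COL4A5, chrX:108439588-108439887, plus strand: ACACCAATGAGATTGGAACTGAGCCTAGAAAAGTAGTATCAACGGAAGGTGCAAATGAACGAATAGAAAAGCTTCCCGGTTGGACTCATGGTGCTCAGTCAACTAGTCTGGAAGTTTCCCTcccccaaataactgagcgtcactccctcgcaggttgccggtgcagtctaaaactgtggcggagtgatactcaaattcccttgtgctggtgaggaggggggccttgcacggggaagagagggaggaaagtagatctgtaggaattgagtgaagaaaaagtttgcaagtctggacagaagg
It holds 49.3% G and C, against a median of 58.7% over all 35116 RefSeq windows of this length.

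Of the 74 members, 55 had a RefSeq window, in 73 windows. A CCAAT box (CCAAT, or ATTGG on the other strand) was found in a window of COL4A1, COL4A2, COL4A5 and COL4A6, and in 24.7% of member windows against 34.6% of all windows. A GC box (GGGCGG or CCGCCC) was found for COL4A1, COL4A2 and COL4A6, and in 57.5% of member windows against 44.95% of all. In each collagen IV pair a CCAAT match lies in the bases shared by both windows, so the same match counts for both genes. The same holds for a GC box of COL4A1 and COL4A2. The p53 site of a pair of half-sites, searched by its consensus, was in 0 member windows and in 0.028% of all windows. A match is a match in letters, not a binding site, and these windows hold only the bases next to each start.

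Collagen VI needs COL6A1, COL6A2 and COL6A3 to assemble. COL6A1 measured 115 and 120.1 RPKM in KO Nutlin-3a, 102 and 96.2 in KO DMSO, 298 and 310.4 in WT Nutlin-3a, and 244 and 238 in WT DMSO cells. COL6A2 measured 53.3 and 53.9 RPKM in KO Nutlin-3a, 47.4 and 45.2 in KO DMSO, 128 and 128 in WT Nutlin-3a, and 108 and 103 in WT DMSO cells. Each was lower in every KO library than in every WT library. Under DMSO, COL6A1 fell by 1.35 (SE 0.05) and COL6A2 fell by 1.25 (SE 0.05). COL6A3 was low throughout, at 0.614 and 0.544 RPKM in KO Nutlin-3a, 0.658 and 0.590 in KO DMSO, 0.290 and 0.342 in WT Nutlin-3a, and 0.541 and 0.639 in WT DMSO cells, so that COL6A1 exceeded it 154- to 221-fold in KO libraries and 372- to 1027-fold in WT libraries. COL6A6, an alternative to COL6A3, was at 0.168 and 0.196 RPKM in KO DMSO cells, against 1.26 and 1.28 in WT DMSO cells and was lower in KO cells (-2.86, SE 0.18, adjusted p = 8.7e-11).

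**Figure D3:**
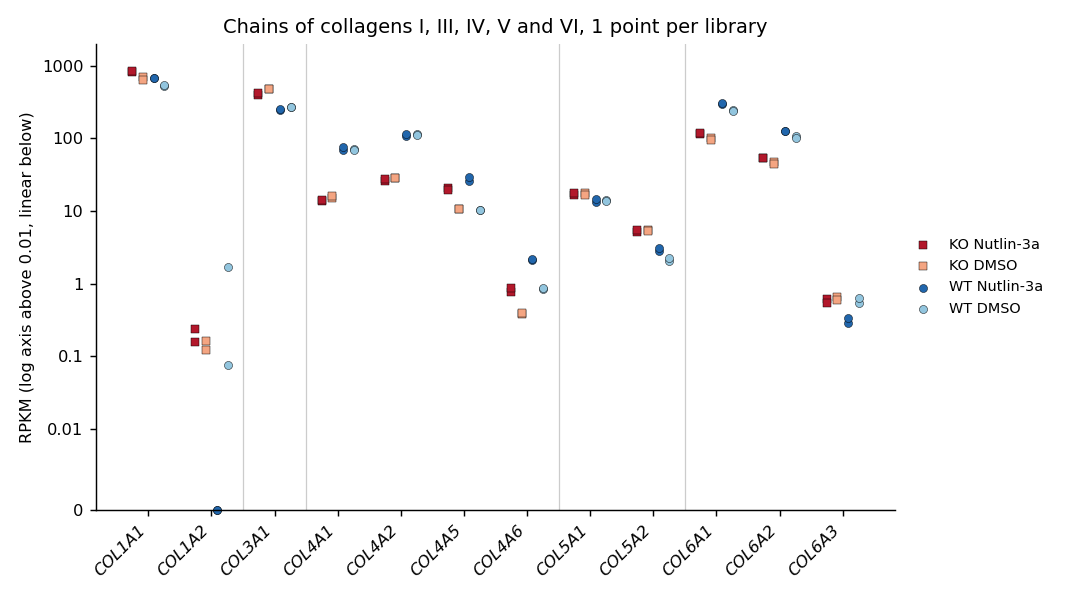
RPKM of the chains of collagens I, III, IV, V and VI in each library, on an axis that is logarithmic above 0.01 and linear below. COL1A2 and COL6A3 lie far below their partner chains, and the 2 WT Nutlin-3a points of COL1A2 are at 0.

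Among further collagens, COL7A1, which makes the anchoring fibrils of skin, was at 2.00 and 2.22 RPKM in KO Nutlin-3a, 0.499 and 0.571 in KO DMSO, 7.04 and 9.11 in WT Nutlin-3a, and 1.69 and 1.87 in WT DMSO cells. It was lower in KO cells under DMSO (-1.80, SE 0.15, adjusted p = 7.9e-07) and under Nutlin-3a (-2.03, SE 0.11, adjusted p = 1.4e-08). COL18A1, the basement membrane collagen from which endostatin is cut, was at 71.3 and 69.9 RPKM in KO DMSO cells, against 112 and 115 in WT DMSO cells (-0.75, SE 0.05, adjusted p = 9.0e-11). COL10A1, the collagen of hypertrophic cartilage, had 0 and 1 reads in KO DMSO cells against 15 and 8 in WT DMSO cells.

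Several collagens that bind fibrils or span the membrane were higher in KO cells, but the group that binds fibrils was mixed. Of its 7 tested chains, 4 were higher and 2 lower under DMSO, and 2 were higher and 3 lower under Nutlin-3a. Of 4 tested transmembrane chains, 2 were higher and 0 lower under DMSO, and 3 were higher and 1 lower under Nutlin-3a. Over all genes, 31.4% were higher and 30.1% lower under DMSO, and 32.7% and 30.4% under Nutlin-3a. COL25A1, a transmembrane collagen made by neurons, measured 19.9 and 22.1 RPKM in KO Nutlin-3a, 18.5 and 18.4 in KO DMSO, 1.03 and 1.54 in WT Nutlin-3a, and 1.81 and 1.57 in WT DMSO cells. Its KO libraries exceeded every WT library by a wide margin (3.38, SE 0.12, adjusted p = 6.1e-09 under DMSO). COL12A1 and COL14A1 are fibril-associated collagens that sit on the surface of collagen I fibrils. COL12A1 measured 39.4 and 44.5 RPKM in KO Nutlin-3a, 45.6 and 45.9 in KO DMSO, 12.5 and 15.2 in WT Nutlin-3a, and 11.7 and 11.6 in WT DMSO cells. COL14A1 measured 3.62 and 3.21 RPKM in KO Nutlin-3a, 3.14 and 3.28 in KO DMSO, 0.312 and 0.262 in WT Nutlin-3a, and 0.549 and 0.505 in WT DMSO cells. The rise in KO cells under DMSO was 1.91 for COL12A1 and 2.54 for COL14A1 on the log2 scale, with SE of 0.08 and 0.12. COL22A1, another member of the group, was read only in WT libraries: 0 reads in the 4 KO libraries, against 8 and 11 in WT DMSO and 12 and 7 in WT Nutlin-3a cells. COL23A1, also transmembrane, had 19 and 19 reads in KO DMSO against 1 and 2 in WT DMSO cells, a KO to WT ratio of 10.0 with a counting interval of 3.19 to 50.8. With a floor of 3 reads over the KO group, COL22A1 was at least 7.99-fold lower under DMSO and at least 7.63-fold lower under Nutlin-3a.

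Among laminins, 1 of 11 tested chains was higher and 7 were lower in KO cells under DMSO, and 2 were higher and 6 lower under Nutlin-3a, beside 31.4% of all genes higher and 30.1% lower under DMSO and 32.7% and 30.4% under Nutlin-3a. With the 3 libraries left out, 1 laminin chain was higher and 6 were lower under DMSO, and 2 and 7 under Nutlin-3a. LAMC1, the gamma chain of most laminins, measured 61.8 and 63.3 RPKM in KO Nutlin-3a, 53.4 and 52.2 in KO DMSO, 128 and 146 in WT Nutlin-3a, and 103 and 105 in WT DMSO cells. Every KO library lay below every WT library (-1.04, SE 0.05, adjusted p = 8.1e-12 under DMSO). LAMB1, its usual beta partner, measured 49.8 and 50.8 RPKM in KO Nutlin-3a, 59.1 and 59.3 in KO DMSO, 36.0 and 40.8 in WT Nutlin-3a, and 54.2 and 53.3 in WT DMSO cells, and passed the threshold under Nutlin-3a alone (0.30, SE 0.05, adjusted p = 6.2e-05). The LAMC1 to LAMB1 ratio of RPKM was thus 0.88 to 1.25 in KO and 1.91 to 3.58 in WT libraries. LAMA5 was the most abundant alpha chain, at 20.9 and 22.6 RPKM in KO Nutlin-3a, 17.9 and 19.0 in KO DMSO, 18.8 and 24.2 in WT Nutlin-3a, and 17.6 and 17.2 in WT DMSO cells, and neither genotype comparison passed the threshold. LAMA1, the alpha chain of early embryonic laminin, was higher in KO cells, at 5.65 and 5.58 RPKM in KO DMSO cells, against 2.48 and 2.37 in WT DMSO cells (1.15, SE 0.07, adjusted p = 7.1e-11). LAMA1 made up 15.9 to 23.8% of laminin alpha RPKM in KO and 6.13 to 12.1% in WT libraries.

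LAMB3, a beta chain of epithelial laminin, was lower in KO cells, with 17 and 29 reads in KO DMSO cells, against 196 and 181 in WT DMSO cells (-3.36, SE 0.23, adjusted p = 3.8e-10). LAMA3, an alpha chain of epithelial laminin, was near the detection limit with 11 to 32 reads in any library. It was called lower in KO cells under DMSO alone, on 25 and 11 reads in KO DMSO against 30 and 32 in WT DMSO cells. LAMA2, the alpha chain of muscle and nerve laminin, had 7 and 10 reads in KO DMSO cells, against 94 and 99 in WT DMSO cells (-3.82, SE 0.30, adjusted p = 2.4e-09). LAMA4 also passed under DMSO (log2 fold change -1.36), but its call was lost in 8 of 17 alternative settings. Among these were the fits without WT DMSO replicate 2 (-0.85, adjusted p = 0.27), without KO DMSO replicate 1 (adjusted p = 0.12) and without KO DMSO replicate 2 (0.0729).

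Of 22 integrin subunits, 3 were higher and 13 lower in KO cells under DMSO, and 3 were higher and 12 lower under Nutlin-3a, against the same shares of all genes. In each treatment 3 were higher and 12 lower without the 3 libraries. ITGA8, an alpha subunit that binds nephronectin and fibronectin, showed the widest gap. It had 9 and 10 reads in KO Nutlin-3a, 11 and 17 in KO DMSO, 1016 and 965 in WT Nutlin-3a, and 1283 and 1249 in WT DMSO cells. In KO cells ITGA8 fell by 6.82 (SE 0.14) under DMSO and fell by 6.95 (SE 0.15) under Nutlin-3a. ITGA5, the classic fibronectin receptor subunit, was at 0.234 and 0.340 RPKM in KO DMSO cells, against 1.91 and 1.92 in WT DMSO cells (-2.79, SE 0.18, adjusted p = 1.2e-10). ITGA4, which binds fibronectin and VCAM-1, was at 6.90 and 7.31 RPKM in KO DMSO cells, against 25.2 and 24.5 in WT DMSO cells (-1.87, SE 0.06, adjusted p = 7.5e-15).

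The laminin receptor subunits ITGA3 and ITGA6 were both lower in KO cells. ITGA3 measured 27.4 and 29.3 RPKM in KO Nutlin-3a, 11.03 and 9.49 in KO DMSO, 139 and 149.9 in WT Nutlin-3a, and 39.4 and 38.3 in WT DMSO cells. In KO cells ITGA3 fell by 1.99 (SE 0.06) under DMSO and fell by 2.44 (SE 0.06) under Nutlin-3a. ITGA6 measured 2.79 and 3.15 RPKM in KO Nutlin-3a, 1.83 and 1.73 in KO DMSO, 7.67 and 8.04 in WT Nutlin-3a, and 7.70 and 7.63 in WT DMSO cells, and fell by 2.17 (SE 0.08) under DMSO in KO cells. Of the collagen receptor subunits, ITGA1 stood at 15.7 and 14.8 RPKM in KO DMSO cells, against 36.6 and 36.3 in WT DMSO cells (-1.32, SE 0.07, adjusted p = 5.8e-10) and ITGA2 at 2.58 and 2.48 RPKM in KO DMSO cells, against 6.95 and 7.25 in WT DMSO cells (-1.55, SE 0.08, adjusted p = 7.2e-12). ITGA11, which binds collagen I, went the other way, at 9.11 and 8.19 RPKM in KO DMSO cells, against 4.92 and 4.81 in WT DMSO cells (0.77, SE 0.08, adjusted p = 5.6e-07).

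ITGB3, ITGB5 and ITGB8 are beta subunits that pair with ITGAV, and their direction was mixed. ITGB5, the most abundant of these 3, was at 12.1 and 11.4 RPKM in KO DMSO cells, against 31.0 and 32.9 in WT DMSO cells (-1.51, SE 0.06, adjusted p = 1.8e-13). ITGB8, which activates latent TGF-beta, was at 2.19 and 2.08 RPKM in KO DMSO cells, against 0.405 and 0.353 in WT DMSO cells (2.43, SE 0.12, adjusted p = 1.7e-12). ITGB3, the beta subunit of the vitronectin receptor, was at 0.911 and 0.774 RPKM in KO DMSO cells, against 0.163 and 0.139 in WT DMSO cells (2.40, SE 0.24, adjusted p = 9.1e-08). ITGAV itself was at 13.3 and 13.6 RPKM in KO DMSO cells, against 15.9 and 16.9 in WT DMSO cells, a log2 difference of -0.35. In KO cells ITGB5 thus fell where ITGB8 and ITGB3 rose, and ITGB5 had the highest RPKM of these 3 beta subunits in every library.

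Nutlin-3a raised more members than it lowered in both genotypes. In KO cells, 23 of 68 tested members were higher and 11 lower with Nutlin-3a, where 18.1% of all tested genes rose and 20.6% fell. In WT cells, 28 rose and 14 fell, where 29.4% of all genes rose and 29.2% fell. Without the 3 libraries, more members were again higher than lower in each genotype. Over all genes in that fit, rises slightly outnumbered falls in each genotype. The median log2 fold change of members was 0.18 in KO and 0.09 in WT cells, against -0.01 and 0.02 over all genes. Of the members called, 20 were higher in both genotypes (87.0% of those in KO and 71.4% of those in WT cells), 8 were lower in both (72.7% and 57.1%), and 0 went in opposite directions. For this overlap too, the shares over all genes were not computed. Without KO DMSO replicate 2 the number higher in KO cells was 14.

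**Figure D4:**
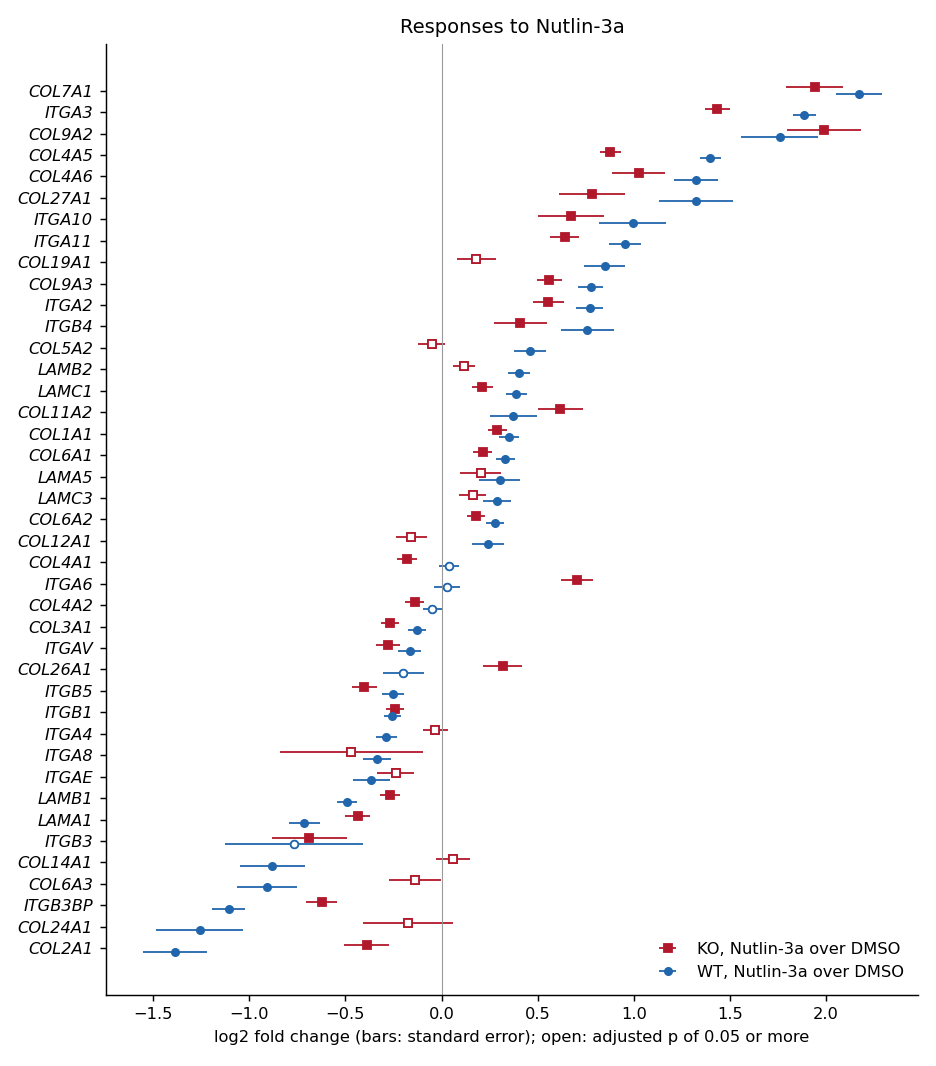
Log2 fold change of Nutlin-3a over DMSO in KO cells (squares) and WT cells (circles), with standard errors, for 41 members called in at least 1 genotype and whose mean log2 CPM reached 1. Open symbols did not pass the threshold. COL7A1, ITGA3 and COL9A2 are at the top in both genotypes, and COL2A1 and COL24A1 have the lowest WT values.

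The largest rises were in a collagen VII chain, a laminin receptor and a cartilage collagen. COL7A1 rose by 1.94 (SE 0.15) in KO cells and by 2.17 (SE 0.12) in WT cells. COL9A2, a chain of the fibril-associated collagen IX, measured 2.06 and 1.75 RPKM in KO Nutlin-3a, 0.492 and 0.446 in KO DMSO, 1.85 and 1.59 in WT Nutlin-3a, and 0.441 and 0.577 in WT DMSO cells. It rose by 1.99 (SE 0.19) in KO cells and by 1.76 (SE 0.20) in WT cells, and its KO and WT levels overlapped in each treatment. ITGA3 rose by 1.44 (SE 0.06) in KO cells and by 1.89 (SE 0.06) in WT cells. ITGA3 accounted for 29.6 to 30.9% of integrin alpha RPKM in KO Nutlin-3a and 13.9 to 15.4% in KO DMSO cells. In WT cells the same share was 54.3 to 55.3% with Nutlin-3a and 24.4 to 24.97% with DMSO.

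Collagen IV split by pair. COL4A5 rose by 0.88 (SE 0.05) in KO cells and by 1.40 (SE 0.05) in WT cells, and COL4A6 rose by 1.03 (SE 0.14) and 1.33 (SE 0.11) in the same order. COL4A1 and COL4A2 changed far less: in KO cells COL4A1 fell by 0.18 (SE 0.05) and COL4A2 fell by 0.14 (SE 0.05), and in WT cells neither passed. The KO call of COL4A1 was lost when KO DMSO replicate 2 (adjusted p = 0.134) or replicate 1 of the KO Nutlin-3a libraries (0.146) was left out, and that of COL4A2 was lost without any 1 of the 4 DMSO libraries or without KO Nutlin-3a replicate 1 (adjusted p up to 0.401). In all, the KO call of COL4A2 was lost in 11 of 17 alternative settings and that of COL4A1 in 5. Some of these settings kept all libraries and changed only the scaling or the test. The collagen VI pair rose slightly, COL6A1 by 0.21 (SE 0.05) in KO and 0.33 (SE 0.05) in WT cells. COL6A1 in KO cells lost its call without KO DMSO replicate 2 (0.17, adjusted p = 0.0683).

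The abundant fibrillar chains went apart. COL1A1 rose by 0.29 (SE 0.05) in KO cells and by 0.35 (SE 0.05) in WT cells. COL3A1 fell by 0.27 (SE 0.05) in KO cells and fell by 0.13 (SE 0.05) in WT cells, although the WT call was lost without any 1 of the 4 DMSO libraries or without WT Nutlin-3a replicate 1 (adjusted p up to 0.182). The COL1A1 to COL3A1 ratio of RPKM was 2.05 in each KO Nutlin-3a library and 1.35 to 1.44 with DMSO, and in WT cells 2.69 to 2.77 and 1.94 to 1.98. COL27A1, a cartilage fibrillar collagen, rose by 0.78 (SE 0.17) in KO cells and by 1.32 (SE 0.19) in WT cells. Its KO call was lost without KO DMSO replicate 1 (adjusted p = 0.0725) or replicate 2 (0.0524). COL11A1 was not read in WT DMSO cells and had 10 and 15 reads in WT Nutlin-3a cells, at least 8.44-fold higher with a floor of 3 reads.

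Among laminins and integrins, LAMC1 rose and LAMB1 fell with Nutlin-3a. LAMC1 rose by 0.21 (SE 0.05) in KO cells and by 0.39 (SE 0.05) in WT cells, and its KO call was lost without replicate 2 of KO DMSO (adjusted p = 0.0762) or of KO Nutlin-3a (0.0663). LAMB1 fell by 0.27 (SE 0.05) in KO cells and fell by 0.49 (SE 0.05) in WT cells. LAMA1 fell by 0.44 (SE 0.07) in KO cells and fell by 0.71 (SE 0.08) in WT cells. Of the 7 integrin alpha subunits that bind collagen or laminin, 5 were higher and 0 lower in KO cells, where 18.1% of all genes rose and 20.6% fell, and 4 were higher and 0 lower in WT cells, where 29.4% rose and 29.2% fell. In each genotype 5 of these subunits were higher and 0 lower without the 3 libraries. ITGB1 fell by 0.24 (SE 0.05) in KO cells and fell by 0.26 (SE 0.05) in WT cells. ITGAM, a leukocyte subunit, had 14 and 29 reads in KO Nutlin-3a against 1 and 0 in KO DMSO cells, and 7 and 16 in WT Nutlin-3a against 0 and 0 in WT DMSO cells. Its beta partner ITGB2 had 16 reads in all 8 libraries together.

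The response to Nutlin-3a differed between genotypes for 19 of 68 tested members. The difference, KO response minus WT response, was positive for 10 and negative for 9, where 14.2% of all tested genes were positive and 13.4% negative. Without the 3 libraries, negative differences outnumbered positive ones among members and, in proportion by less, among all genes. Without 1 library at a time the positive ones numbered 5 to 12, with 5 and 6 when a KO DMSO library was left out, and the negative ones 5 to 18, with 18 when WT Nutlin-3a replicate 1 was left out. Several of the positive differences were genes that fell in WT cells and changed less in KO cells. COL2A1 fell by 0.39 (SE 0.12) in KO cells and fell by 1.39 (SE 0.17) in WT cells (difference 1.00, SE 0.21, adjusted p = 0.0013). The KO call of COL2A1 was lost without replicate 2 of KO DMSO (adjusted p = 0.142) or of KO Nutlin-3a (0.0991). COL14A1 was at 3.62 and 3.21 RPKM in KO Nutlin-3a and 3.14 and 3.28 in KO DMSO cells, and fell by 0.88 (SE 0.17) in WT cells (difference 0.94, SE 0.19, adjusted p = 0.0013). ITGA6 rose by 0.70 (SE 0.08) in KO cells, while its WT libraries lay between 7.63 and 8.04 RPKM in both treatments (difference 0.67, SE 0.11, adjusted p = 0.00012).

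The negative differences included genes that rose more in WT cells. COL4A5 had a difference of -0.52, SE 0.08, adjusted p = 5.6e-05, and ITGA3 of -0.45, SE 0.09, adjusted p = 0.00089. COL5A2 rose by 0.46 (SE 0.08) in WT cells and stood at 5.14 and 5.48 RPKM in KO Nutlin-3a and 5.45 and 5.30 in KO DMSO cells (difference -0.51, SE 0.11, adjusted p = 0.0017). COL19A1 changed by 0.18 (SE 0.10, adjusted p = 0.18) in KO cells and rose by 0.85 (SE 0.11) in WT cells (difference -0.67, SE 0.15, adjusted p = 0.0022). For COL7A1 and COL4A6 the difference did not pass, at -0.23 (SE 0.20) and -0.30 (SE 0.18). That of COL7A1 was -0.41 without WT Nutlin-3a replicate 1 and -0.57 without the 3 libraries together. Each of these fits leaves 1 library in at least 1 group. For COL12A1, COL24A1, COL6A3, ITGA4, ITGA11, LAMB1, LAMB2 and COL4A1, the call of a difference was lost in at least 5 of 17 alternative settings.

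Partners of these genes were taken from 5 lists: collagen processing (33 tested), other matrix glycoproteins (37), other matrix receptors (19), integrin adaptors (31) and matrix proteases with their inhibitors (24). Under DMSO, 15 collagen processing genes were higher and 8 lower in KO cells, and 19 glycoprotein genes were higher and 10 lower. In the same comparison 9 adaptors were higher and 15 lower, and 7 proteases or inhibitors were higher and 12 lower. The receptors split evenly, with 7 higher and 7 lower. Over all tested genes, 31.4% were higher and 30.1% lower. Without the 3 libraries with reads of unrelated genes, each of these counts, and each count with Nutlin-3a given for these lists, stayed within 1.5 times its value. The medians of these lists lay between -0.30 and 0.30 on the log2 scale, against 0.01 for all genes.

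**Figure D5:**
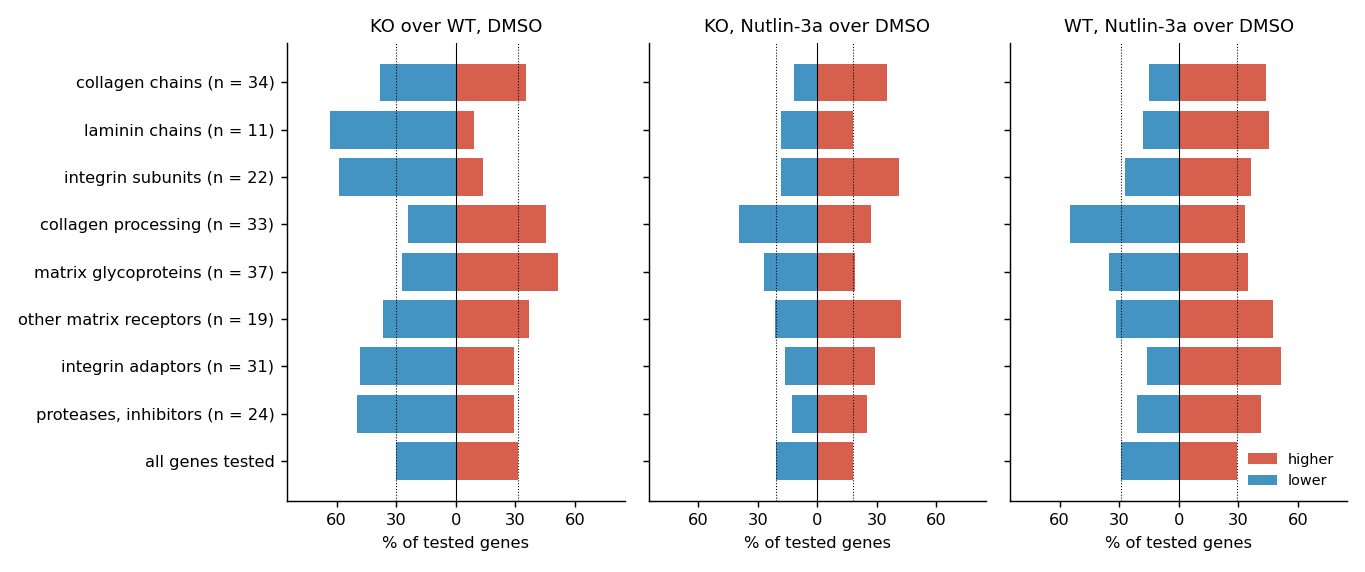
Share of tested genes higher (red, right) and lower (blue, left) at an adjusted p under 0.05, for the member families and 5 lists of partner genes, in KO over WT under DMSO and in the responses of KO and WT cells. Dotted lines mark the shares over all tested genes. Laminins and integrins extend farthest to the left in KO over WT, and collagen processing extends farthest to the left in the WT response.

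TLL1 and TLL2, tolloid-like proteases on the collagen processing list, were among the genes of that list most raised in KO cells. TLL2 measured 10.9 and 9.57 RPKM in KO Nutlin-3a, 8.69 and 8.66 in KO DMSO, 0.146 and 0.161 in WT Nutlin-3a, and 0.213 and 0.176 in WT DMSO cells (5.41, SE 0.11, adjusted p = 1.2e-17). LEPREL1, a prolyl hydroxylase that modifies collagen IV among others, was lower in KO cells, at 3.80 and 3.38 RPKM in KO DMSO cells, against 12.7 and 13.1 in WT DMSO cells (-1.91, SE 0.07, adjusted p = 1.5e-14). Of the glycoproteins, THBS4, a thrombospondin, measured 4.90 and 5.03 RPKM in KO Nutlin-3a, 5.57 and 5.24 in KO DMSO, 96.2 and 96.0 in WT Nutlin-3a, and 80.9 and 80.0 in WT DMSO cells and was lower in KO cells (-3.96, SE 0.05, adjusted p = 4.9e-20). POSTN, which binds collagen I and integrins, was higher (2.87, SE 0.09, adjusted p = 2.8e-15). PXN, the focal adhesion scaffold paxillin, was at 17.4 and 16.5 RPKM in KO DMSO cells, against 55.2 and 58.5 in WT DMSO cells (-1.81, SE 0.06, adjusted p = 4.8e-15), while TNS3, a tensin that binds integrin beta tails, was higher (1.64, SE 0.05, adjusted p = 2.5e-15). TIMP3, an inhibitor of matrix proteases, was at 57.2 and 54.8 RPKM in KO DMSO cells, against 13.2 and 13.3 in WT DMSO cells (2.02, SE 0.05, adjusted p = 2.0e-16).

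With Nutlin-3a, 9 of the 33 collagen processing genes were higher and 13 lower in KO cells, where 18.1% of all genes rose and 20.6% fell. In WT cells 11 were higher and 18 lower, where 29.4% of all genes rose and 29.2% fell. COLGALT1, which adds galactose to collagen, fell in WT cells (-1.05, SE 0.05, adjusted p = 3.0e-12). PCOLCE, which aids the trimming of procollagen, fell in KO cells (-0.75, SE 0.05, adjusted p = 7.7e-10). Of the 19 receptors, 8 rose and 4 fell in KO cells, and 9 rose and 6 fell in WT cells. Of the 31 adaptors, 9 rose and 5 fell in KO cells, and 16 rose and 5 fell in WT cells. SDC4, a syndecan that works with integrins at focal adhesions, measured 40.4 and 39.1 RPKM in KO Nutlin-3a, 14.7 and 13.6 in KO DMSO, 149 and 143 in WT Nutlin-3a, and 18.3 and 20.2 in WT DMSO cells. It rose by 1.46 (SE 0.06) in KO cells and by 2.91 (SE 0.06) in WT cells, and the difference was -1.45 (SE 0.08, adjusted p = 5.6e-10). MMP11, a matrix metalloproteinase, rose by 1.39 (SE 0.07) in KO cells and by 2.52 (SE 0.07) in WT cells.

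Markers of other cells moved with genotype and treatment as well. A list of 10 fibroblast genes, led by LUM and all read in at least 1 library, summed to 571 to 580 CPM in KO Nutlin-3a, 817 to 826 in KO DMSO, 847 to 893 in WT Nutlin-3a and 1149 to 1176 in WT DMSO cells. A list of 11 epithelial genes, led by KRT18, summed to 220 to 235 CPM in KO Nutlin-3a, 258 to 283 in KO DMSO, 661 to 686 in WT Nutlin-3a and 586 to 607 in WT DMSO cells. A list of 8 Schwann or neural crest genes summed to 68.1 to 85.6 CPM in KO and 19.2 to 52.0 in WT libraries. Of 12 haematopoietic genes, CD3E and CD3D were at 0 in all libraries, and the list summed to 13.3 to 15.6 CPM in KO and 22.0 to 32.1 in WT libraries. Endothelial genes (8 listed) summed to 20.5 to 32.1 CPM and melanocyte genes (6 listed, TYR at 0) to 9.29 to 17.7 CPM over all libraries. The highest endothelial sum came from WT Nutlin-3a replicate 1 (975 reads, against 597 in replicate 2), the library with the receptor kinase reads. TEK is in both the endothelial and the receptor kinase list. The part of such cells or states in the differences above was not tested.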

How the data were processed

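The authors deposited whole read counts per gene and RPKM values for 8 libraries. Per the submitters' processing notes, the tools include HTSeq 0.8.0, TopHat2 2.1.1 and Picard 2.9.4, and the build is GRCh37 (hg19). Neither the annotation nor whether strand was used in counting is given in the sources used here, and genes that overlap or resemble each other can share or lose reads. For 13777 of 13777 genes checked, counts and RPKM implied 1 gene length, within 0.01 bases. For COL11A2 that length is 45942 bases, which lowers its RPKM.

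Counts were filtered with filterByExpr (9490 genes removed), scaled by TMM and fitted with 1 mean per group over all 8 libraries in edgeR 4.0.16 (R 4.3.3), which left 4 residual degrees of freedom. P-values were adjusted over 15879 genes by the Benjamini-Hochberg method, with a threshold of 0.05. RPKM values carry no TMM scaling. Intervals and floors, at 95% and 3 reads over a group, cover counting error only. The fit was tested on simulated data. Alternatives used DESeq2 1.42.0, limma 3.58.1 and the libraries left out.

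Members and lists were chosen with earlier results of these data known, and 1 member is not reported here. Genes named are the 12 most abundant, up to 8 with the largest called rise and fall per comparison (5 for the difference of responses) where mean log2 CPM reached 1 and the groups did not overlap, listed chains and partners, members near the read threshold or with replicates 5-fold apart, and up to 3 genes per partner list. COL5A1, COL10A1, COL16A1, COL23A1, COL26A1, ITGA1, ITGA2, ITGA7, ITGAM, LAMA2 and LAMA3 were named after their values were seen. Replicates differed by more than counting noise, and all 8 libraries were kept apart.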

Additional observations from a re-analysis of the deposited data

Results flagged for a closer look

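Members whose response to Nutlin-3a differed between genotypes by edgeR's test of the difference (KO response minus WT response, log2 scale, 2 replicates per group) are listed with that difference. It held in all 17 alternative settings for COL4A5 (-0.52), COL5A2 (-0.51), COL19A1 (-0.67), ITGA3 (-0.45), ITGA6 (0.67) and ITGB3BP (0.48). It was lost in 2 settings for COL2A1 (1.00), COL14A1 (0.94) and COL26A1 (0.52), and in 5 for COL24A1 (1.08).

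It was lost in 7 settings for COL6A3 (0.77) and LAMB2 (-0.28), and in 8 for COL16A1 (-1.24). It was lost in 9 settings for COL4A1 (-0.22), COL12A1 (-0.40) and LAMB1 (0.22), in 10 for ITGA7 (0.50), and in 12 for ITGA4 (0.25) and ITGA11 (-0.31). COL6A3 was at 0.61 and 0.54 RPKM in KO Nutlin-3a, 0.66 and 0.59 in KO DMSO, 0.29 and 0.34 in WT Nutlin-3a, and 0.54 and 0.64 in WT DMSO cells. COL24A1 was at 0.21 and 0.30 RPKM in KO Nutlin-3a, 0.29 and 0.26 in KO DMSO, 0.23 and 0.25 in WT Nutlin-3a, and 0.53 and 0.60 in WT DMSO cells. In both genes it was the WT Nutlin-3a libraries that lay below the WT DMSO libraries, while the KO libraries of the treatments overlapped. The share of all tested genes with a called difference was 14.2% positive and 13.4% negative.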

How the results depend on the processing

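Across 17 alternative settings, 182 called values of members were followed, some of them of members not named here. The call of LAMA3 was not among them. Of the 182, 131 kept their direction and their call in all settings, and 51 lost the call in at least 1. The sign turned for ITGAV alone, whose WT response (-0.17) was 0.015 without the 3 libraries with reads of unrelated genes. That fit keeps 1 library in each group but KO DMSO. Counts of members called in KO against WT cells, and in the WT response, stayed within 1.5 times the main count in all settings. Leaving out 1 library at a time gave 14 to 28 members higher in the KO response, and 5 to 12 positive and 5 to 18 negative in the difference of responses. Under limma-trend on log2(RPKM + 1), 6 members had a positive difference. Without a low-value filter on that scale there were 5, and 7 members fell with Nutlin-3a in KO cells. With a pseudocount of 0.1, 5 had a negative difference, and without the 3 libraries 22 had one. The cause was not tested. On the log2(RPKM + 1) scale, 6225 of all genes were higher and 3777 lower in KO against WT cells under Nutlin-3a, against 5190 and 4822 in the fit reported. Replicate numbers did not pair the libraries: same-numbered libraries of the groups compared had correlations of deviations from -0.023 to -0.004, and those sharing neither genotype nor treatment had 0.069 and 0.232. With the replicate block, 16 members were higher and 32 lower in KO cells under DMSO, 18 and 32 under Nutlin-3a, 24 and 13 in the KO response, 28 and 15 in the WT response, and 11 and 9 in the difference. With 2 replicates per group, members with few reads had wide errors, and 6 of 74 had too few reads to be tested.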
